A study of Mus musculus with 20 samples.

Results

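Dermal fibroblasts of mice that had been food restricted and then refed were compared with those of mice that had never been restricted. The members are the 5 arrays of the refed group and the 5 arrays of the never-restricted group, taken from the sample titles, 10 of the 20 arrays in the series, and each array gives a level for 17097 genes. All animals were female, and the labels used here give no genotype. The refed mice (Old CR-ND) received 30% caloric restriction for 7 months from 9 months of age and then a normal diet for 2 months. The never-restricted mice (Old ND) ate the normal diet freely for 9 months from the same age, so that both groups were 18 months old at collection. Late-restricted mice (Old CR, 5 arrays) had the reverse order, 2 months of normal diet and then 7 months of restriction, and young mice (Young ND, 5 arrays) ate the normal diet for 4 weeks from 4 weeks of age. Cells were sorted from digested dermis for Pdgfra and CD34 on the surface and for the absence of CD45, CD117, CD24, CD31 and EpCAM, and their RNA was amplified before hybridization to an Affymetrix array, with 1 array per animal. Each value is a log2 level of a probe set, so a difference of 1 is a change of 2-fold, and each gene is represented by its probe set with the highest mean over the 20 arrays.

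Caloric restriction lowers insulin and growth factor signalling and shifts tissues toward fat oxidation, and refeeding restores the supply of sugar, fat and protein. Dermal fibroblasts make the collagen-rich matrix of skin and include cells that can enter the fat lineage. The Dlk1-Dio3 imprinted region, which recurs below, expresses protein-coding growth regulators from the paternal copy and a series of non-coding RNAs from the maternal copy: Meg3, Rian, a host of small nucleolar RNAs, and Mirg, a host of microRNAs.

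The sorting markers were measured in both groups. Pdgfra had a mean level of 6.2 in Old ND and 6.08 in Old CR-ND, above the median gene level of 5.875, and Cd34 had 11.01 and 11.19. The sorted-against genes were low, at 3.26 and 3.24 for Ptprc (CD45), 3.38 and 3.37 for Kit (CD117), 5.11 and 5.09 for Epcam, 5.66 and 5.69 for Pecam1 (CD31), and 5.56 and 5.43 for Cd24a. Keratinocyte genes stood out from the other cell type lists. The mean level of 10 measured keratinocyte genes ran from 5.79 to 8.14 over the Old ND arrays and from 6.65 to 7.6 over the Old CR-ND arrays, with a median difference of 0.47 and no gene past the threshold. That median was 0.17 over first-run arrays and 0.66 over second-run arrays, and 0.27 to 0.75 with 1 array left out. Krt5, a basal keratin, spanned 7.6 to 10.49 in Old ND and 8.47 to 9.93 in Old CR-ND. Because the samples are bulk, fewer cells of a type and less RNA per cell cannot be told apart, and the part of keratinocyte RNA in any difference below was not tested. The titles number the arrays in 2 separate ranges, called runs here, whose meaning the labels do not state. Old ND and Old CR-ND each have 3 arrays with numbers of the first range and 2 with numbers of the second. Old CR has 4 of the first and 1 of the second (replicate 5), so comparisons with Old CR are not balanced by run. The second principal component (17.2% of the variance) placed every second-run array at or below -10.5 and every first-run array at or above -9.9. On the third (13% of the variance) the first-run Old ND arrays lay at -16.7, -15 and -22.5. Every other array, second-run Old ND arrays included, lay at or above -8.8 on it. On the fourth, with 10.1% of the variance, 1 Old ND array (replicate 2) stood apart at 28.8. Array-to-array correlations were 0.982 to 0.994 within Old ND, 0.987 to 0.994 within Old CR-ND and 0.981 to 0.994 between them.

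Of 17097 genes, 1 changed between Old CR-ND and Old ND in limma's moderated test with Benjamini-Hochberg adjustment at 0.05 (0.00585% of genes). The gene was Rian, and it rose. No gene fell (0%). At an unadjusted p under 0.05, 868 genes differed (5.08%), 334 lower (1.95%) and 534 higher (3.12%). Genes without any change would give a share near that threshold, so the 868 are not counted as changed. The median gene differed by 0.004 on the log2 scale, 15 genes differed by 1 or more, and 95% intervals reached a median of 0.201 to either side of the estimate. The arrays of the groups did not overlap for 82 genes (0.48%), with 53 genes wholly above (0.31%) and 29 wholly below (0.17%) in Old CR-ND. Some genes separate 5 from 5 arrays by chance alone, so a lack of overlap does not by itself mark a gene as changed. With 1 array left out the count was 4 without Old CR-ND replicate 1, 2 without Old CR-ND replicate 2 or 3, 5 without Old ND replicate 4 or 5, and 1 otherwise. With the run as a block, a choice listed as an alternative, 8 genes changed (0.0468%), 7 up (0.0409%) and 1 down (0.00585%). That count was 14 without Old ND replicate 4, 7 without Old ND replicate 5, and between 2 and 5 without any 1 of the other arrays.

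**Figure D1:**
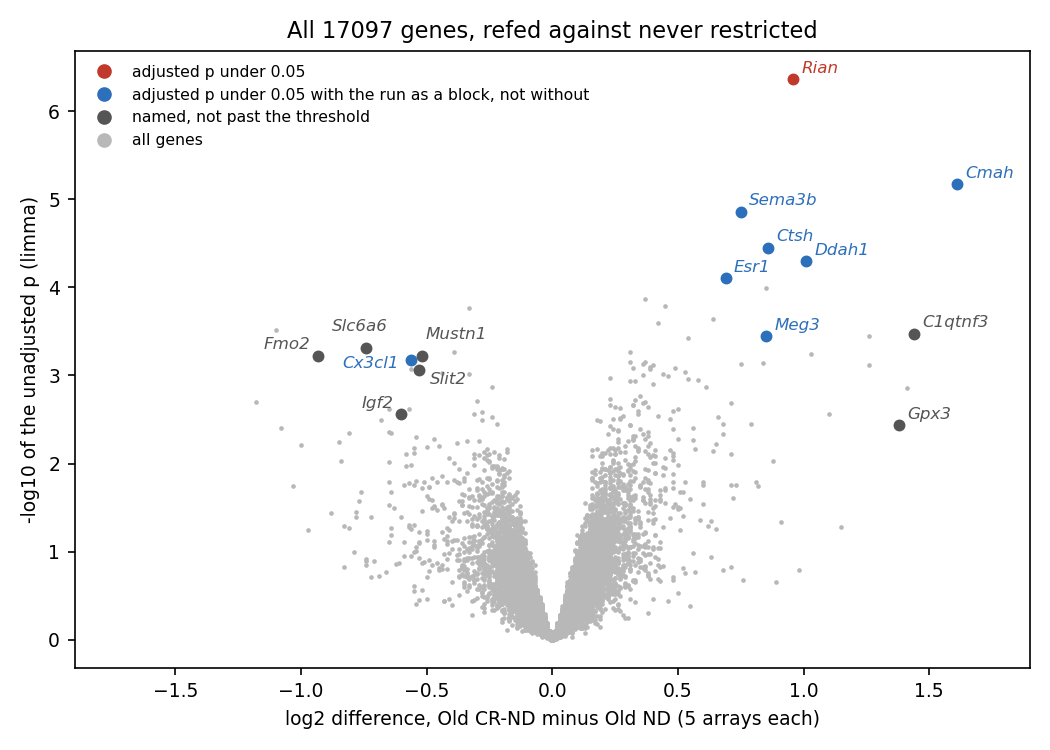
Each grey point is 1 of 17097 genes, with the log2 difference of Old CR-ND minus Old ND (5 arrays each) on the x axis and minus log10 of limma's unadjusted p on the y axis. Rian (red) is highest at 0.96, the 7 blue genes did not pass here and passed in the fit with the run as a block, and most genes lie near 0.

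The imprinted RNAs come first because Rian lies in that group. Rian had levels of 8.49, 7.88, 8.25, 8.51 and 8.2 on the Old ND arrays and of 9.0, 9.26, 9.37, 9.21 and 9.28 on the Old CR-ND arrays. Every refed array lay above every never-restricted array, and the mean rose from 8.27 ± 0.26 to 9.22 ± 0.14 (SD, n = 5). The log2 difference was 0.96 ± 0.13 (limma SE, 95% interval 0.68 to 1.23), 1.94-fold, with an adjusted p of 0.00736. Arrays of the first run alone gave 1.0 and those of the second alone 0.89. Leaving out each array in turn kept the adjusted p between 0.00362 and 0.0409, whereas a fit on these groups alone gave 0.0602. All 4 probe sets of Rian were higher, by 0.93 to 1.36, and on 3 of them no arrays overlapped.

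Meg3, the maternally expressed RNA at the start of the same series, read 9.83, 9.27, 9.55, 9.24 and 8.8 in Old ND and 10.34, 10.42, 10.34, 9.83 and 10 in Old CR-ND. The groups touched at 9.83, and the difference of 0.85 ± 0.2 (95% interval 0.43 to 1.26) missed the threshold in the fit without the block, with an adjusted p of 0.378. With the run as a block the adjusted p was 0.00623, and Meg3 and Rian stayed past the threshold with each array left out of that fit, with highest adjusted p of 0.0307 and 0.026. All 10 Meg3 probe sets were higher, by 0.26 to 1.06, and 9 of them at an unadjusted p under 0.05.

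Mirg, named with the region after its values were seen, had arrays of 6.26, 5.59, 5.96, 6.27 and 5.7 in Old ND and of 5.2, 7.39, 6.79, 7.23 and 7.23 in Old CR-ND. The first of the refed arrays lay below all others and the other four above all of Old ND. The difference was 0.81 ± 0.31, with an adjusted p of 0.878 (0.0393 without that array). The neighbouring genes did not stand out. Dlk1, a paternally expressed inhibitor of fat cell formation, differed by 0.14 (adjusted p 0.998) and Dio3os, the transcript antisense to the thyroid hormone deiodinase gene, by 0. Both were dim, at 5.06 in Old ND and 5.2 in Old CR-ND for Dlk1 and 4.75 in both groups for Dio3os. These levels lie under the median gene level of 5.875, so the flat readings carry little weight. Beyond the region, Wdr25 differed by 0.02, Ppp2r5c by 0.01 and Dync1h1 by 0.05.

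The young and late-restricted arrays place these levels in order. Rian was highest in Young ND (10.77), then Old CR (9.77), Old CR-ND (9.22) and Old ND (8.27), and Meg3 followed the same order at 11.72, 10.68, 10.19 and 9.34. For Rian every refed array lay below every late-restricted array (highest refed 9.37, lowest late-restricted 9.39), and the difference from Old CR of -0.54 ± 0.13 (95% interval -0.82 to -0.27) missed the threshold at an adjusted p of 0.08 (0.0261 to 0.198 with 1 array left out). For Meg3 the refed and late-restricted arrays overlapped, and the difference of -0.49 (95% interval -0.91 to -0.08) had an adjusted p of 0.378.

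**Figure D2:**
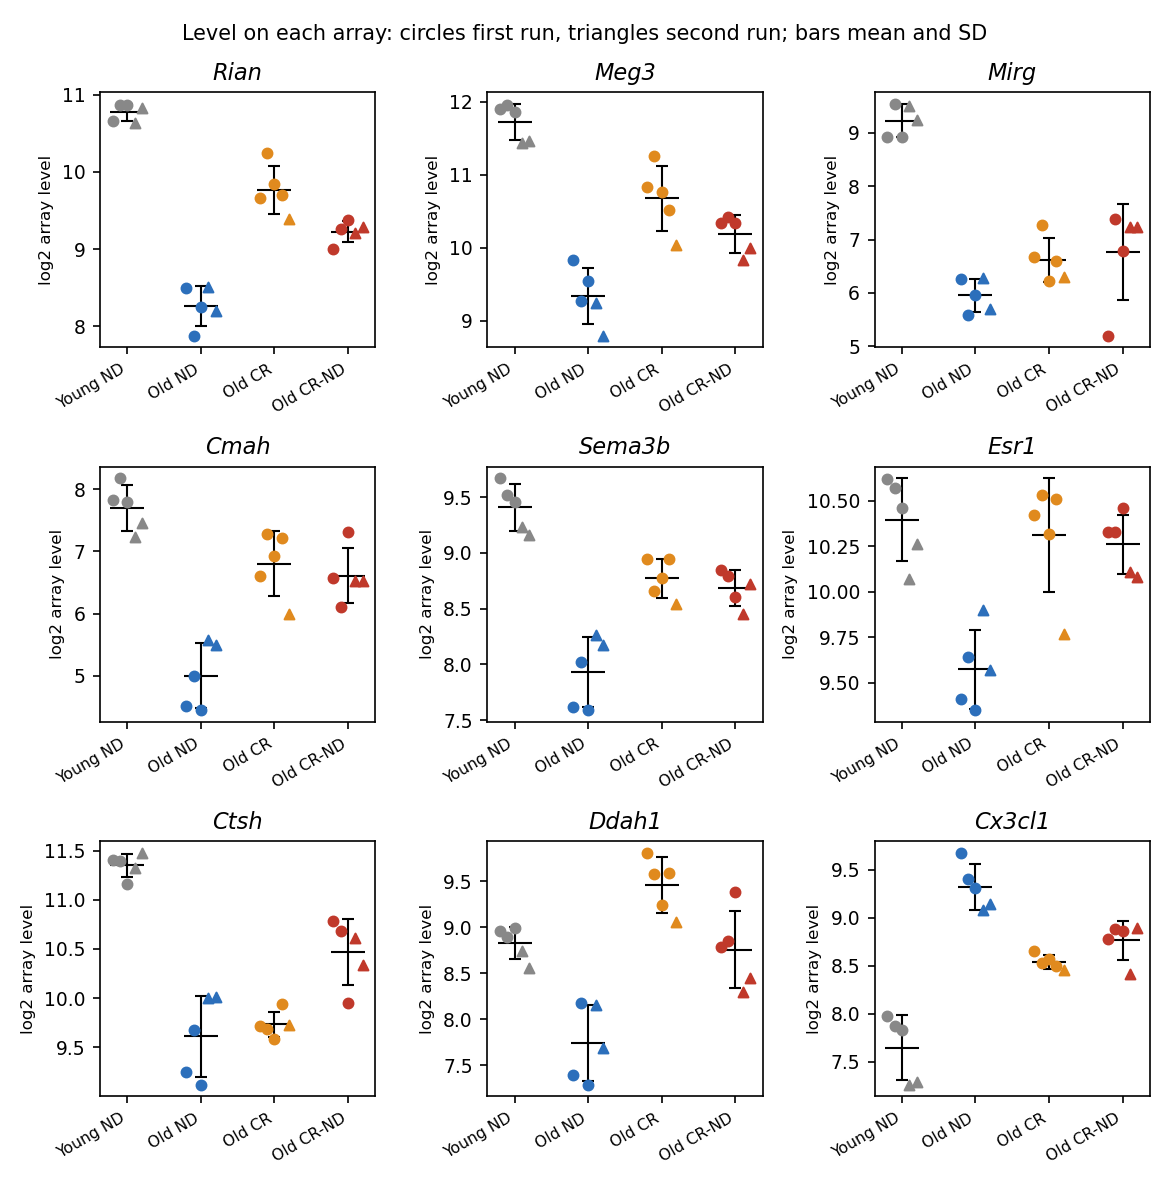
Log2 level on each array for 9 genes in the 4 groups, with circles for the first run, triangles for the second and bars for mean and SD (n = 5). Every Old CR-ND array lies above every Old ND array for Rian (9.0 against 8.51), Cmah, Sema3b, Esr1 and Ddah1, and below for Cx3cl1.

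The start regions of these RNAs are shown because their mean levels were higher in Old CR-ND, although Mirg did not pass and was low on replicate 1. The sequences are from RefSeq (GRCm38.p6), each from 250 bases before to 50 bases after an annotated start, on the plus strand: Meg3 at chr12:109540746-109541045, Rian at chr12:109603695-109603994 and Mirg at chr12:109734731-109735030. RefSeq lists 2 starts for Meg3, and the window of the first is printed. Capitals mark matches on either strand to the TATA box (TATAAA), the CCAAT box or the core of the cAMP response element (TGACG). The GC box (GGGCGG) and the E-box (CACGTG) were searched too.
Meg3: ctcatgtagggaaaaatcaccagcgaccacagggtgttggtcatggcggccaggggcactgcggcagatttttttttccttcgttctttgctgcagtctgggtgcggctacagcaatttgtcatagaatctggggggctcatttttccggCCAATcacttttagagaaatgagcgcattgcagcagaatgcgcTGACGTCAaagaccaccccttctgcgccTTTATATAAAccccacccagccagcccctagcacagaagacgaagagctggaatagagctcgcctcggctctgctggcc
Rian: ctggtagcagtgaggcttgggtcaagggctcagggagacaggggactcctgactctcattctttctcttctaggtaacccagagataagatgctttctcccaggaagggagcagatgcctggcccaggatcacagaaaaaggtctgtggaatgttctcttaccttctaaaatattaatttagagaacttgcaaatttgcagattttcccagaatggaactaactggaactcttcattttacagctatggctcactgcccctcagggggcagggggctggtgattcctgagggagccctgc
Mirg: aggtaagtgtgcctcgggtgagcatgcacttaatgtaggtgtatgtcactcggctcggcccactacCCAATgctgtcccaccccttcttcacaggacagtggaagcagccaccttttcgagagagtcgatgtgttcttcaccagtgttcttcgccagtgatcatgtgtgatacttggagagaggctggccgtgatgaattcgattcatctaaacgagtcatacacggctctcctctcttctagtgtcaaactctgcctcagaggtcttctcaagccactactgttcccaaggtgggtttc
The printed Meg3 window held 2 overlapping matches to the TATA box, 1 CCAAT box and 2 response element cores, which overlap on opposite strands. The window of the second Meg3 start (chr12:109545148-109545447) and the Rian window held none of the 5 motifs, and the Mirg window held 1 CCAAT box. Over 32851 promoters of the same length, 13.6% held a TATA box, 37.4% a CCAAT box, 20.8% the response element core, 35.7% a GC box and 7.2% this E-box. These matches are a description of the windows.

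The rest of the imprinted list moved in both directions. Of 15 measured members, 1 passed (Rian, beside 0.00585% of all genes), 10 were higher, and the median difference was 0.14 against 0.004 over all genes. That median was 0.15 over first-run arrays and -0.01 over second-run arrays, and 0.04 to 0.14 with 1 array left out. Igf2, the fetal growth factor silenced on the maternal copy, read 10.28, 10.01, 9.69, 9.97 and 9.83 in Old ND and 9.53, 9.49, 9.43, 9.24 and 9.11 in Old CR-ND, with no overlap. Its difference of -0.6 ± 0.17 had an adjusted p of 0.616, and the late-restricted mean of 9.95 lay at the Old ND mean of 9.96. Peg3, a paternally expressed zinc finger gene, differed by -0.58 (adjusted p 0.783).

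Cmah, which makes the sialic acid Neu5Gc, had the largest difference of any gene on the probe set with the highest mean, though not as the mean of its 4 probe sets (0.83, against 1.44 for C1qtnf3, 1.38 for Gpx3 and 1.12 for Rian). Its levels were 4.52, 4.99, 4.45, 5.57 and 5.49 in Old ND and 6.57, 6.11, 7.32, 6.53 and 6.52 in Old CR-ND, with no overlap. The difference was 1.61 ± 0.27 (95% interval 1.05 to 2.16), 3.04-fold, with an adjusted p of 0.0581, and of 0.0352 with the run as a block. With 1 array left out it passed without Old CR-ND replicate 2 (0.0456) and without Old ND replicate 4 (0.0191) or 5 (0.0385). It failed without any 1 of the other arrays (adjusted p up to 0.292). It also passed with genes under the lower quartile of level left out (0.0348) or under the median (0.0245). The same held after repeated quantile normalization (0.042) and over first-run arrays alone (0.0148). It did not pass as the mean of its probe sets (0.124), after centring (0.0595) or with array weights (0.0663). Nor did it pass with trend and robust eBayes (0.0733) or with only the 2 groups compared (0.3). Cmah differed by 2.01 over first-run arrays and by 1.0 over second-run arrays. The late-restricted mean was 6.8.

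Sema3b, a secreted guidance protein, read 7.62, 8.02, 7.59, 8.26 and 8.17 in Old ND and 8.85, 8.79, 8.6, 8.45 and 8.72 in Old CR-ND. The groups did not overlap, and the difference of 0.75 ± 0.13 had an adjusted p of 0.0786, or 0.0419 with the block. The other 2 probe sets of Sema3b differed by 0.36 and 0.37 and their arrays overlapped, and the mean of the 3 was 0.49. Esr1, the estrogen receptor alpha, read 9.41, 9.64, 9.35, 9.9 and 9.57 against 10.33, 10.33, 10.46, 10.11 and 10.08, again with no overlap. Its difference was 0.69 ± 0.14 (adjusted p 0.223, 0.0419 with the block).

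Ddah1, which degrades methylated arginines that inhibit nitric oxide synthase, read 7.39, 8.18, 7.29, 8.15 and 7.69 in Old ND and 8.78, 8.85, 9.38, 8.3 and 8.45 in Old CR-ND. Its lowest refed array lay above the highest never-restricted array. The difference was 1.01 ± 0.2 (adjusted p 0.171, 0.0427 with the block), though 1 of its 5 probe sets differed by -0.09. Ctsh, a lysosomal protease, read 9.25, 9.67, 9.12, 10 and 10.01 against 10.78, 10.68, 9.95, 10.61 and 10.34. Its groups overlapped at one array, and the difference was 0.86 ± 0.16 (adjusted p 0.151, 0.0419 with the block). With the run as a block and each array left out in turn, these calls were lost in most fits. Cmah and Ctsh passed in 3 of 10 fits, Sema3b and Cx3cl1 in 2, and Esr1 and Ddah1 in 1. The differences were larger in the first run than in the second for Cmah, Sema3b (1.0 and 0.37), Ctsh (1.12 and 0.47), Esr1 (0.91 and 0.36) and Ddah1 (1.38 and 0.46), and the difference between the runs was not tested.

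The 6 lower genes with the smallest p among those above the median level each had an adjusted p of 0.396. Cx3cl1, the membrane-bound chemokine fractalkine, read 9.68, 9.4, 9.31, 9.08 and 9.14 in Old ND and 8.78, 8.88, 8.86, 8.41 and 8.89 in Old CR-ND. The groups did not overlap, and the difference of -0.56 ± 0.14 passed once the run was a block (0.0419 adjusted). Both of its probe sets were lower on every array. Slc6a6, the taurine transporter, differed by -0.74 ± 0.18 with no overlap, and the Old CR-ND arrays lay between 7.55 and 7.73. Fmo2, a flavin monooxygenase, differed by -0.93 (-0.44 as the mean of its probe sets), Mustn1 by -0.52, the guidance ligand Slit2 by -0.53 and the growth factor Fgf10 by -0.56. For Fgf10 the difference was -0.9 over first-run arrays and -0.06 over second-run arrays.

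Other genes with large differences did not pass. C1qtnf3, an adipokine of the C1q family, differed by 1.44 ± 0.33 (adjusted p 0.378), with 5.5, 6.26, 5.84, 7.14 and 6.95 in Old ND and 8.01, 7.36, 7.45, 8.37 and 7.71 in Old CR-ND. Those arrays did not overlap. Gpx3, a secreted glutathione peroxidase, differed by 1.38 ± 0.42 (adjusted p 0.665) and its arrays overlapped. Plin2, the coat protein of lipid droplets, read 8.33, 8.52, 8.57, 8.53 and 8.47 against 8.73, 8.81, 8.69, 9.17 and 8.85. That difference of 0.37 ± 0.09 had an adjusted p of 0.396 with no overlap, and Plin2 also lay above every late-restricted array (0.41 above that mean, adjusted p 0.0532).

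Collagen maturation genes lay mostly above 0. Of 20 measured genes for collagen hydroxylation, chaperones and processing, 0 passed, 17 were higher, 7 were higher at an unadjusted p under 0.05 (3.12% of all genes were) and none lower, and the median was 0.17. P4ha2, a subunit of prolyl 4-hydroxylase, differed by 0.54 ± 0.14 (adjusted p 0.412) and P3h4, an endoplasmic reticulum partner in collagen modification, by 0.31 ± 0.08 (adjusted p 0.396). P3h4 read 7.57 to 7.87 in Old ND and 7.89 to 8.23 in Old CR-ND. The other five were Pcolce (0.4), Loxl1 (0.33), Serpinh1, the collagen chaperone (0.23), Ppib (0.2) and Crtap (0.19), named after their values were seen. The list median was 0.21 over first-run arrays and 0.1 over second-run arrays, and 0.11 to 0.24 with 1 array left out. The list mean ran from 8.7 to 8.92 over Old ND arrays and from 8.77 to 9.13 over Old CR-ND arrays. Fibrillar collagens themselves had a median of 0.02, with 6 of 10 higher, and the other collagens of -0.09, with 5 of 18 higher.

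Interferon-induced genes were likewise above 0, with 26 of 27 measured members higher (51.7% of all genes were), a median of 0.22 and 0 past the threshold. The list mean ran from 7.16 to 7.66 over Old ND arrays and from 7.43 to 7.71 over Old CR-ND arrays. Usp18, which removes ISG15 from proteins, differed by 0.71 ± 0.2 (adjusted p 0.587) and Zbp1, a nucleic acid sensor, by 0.38 (adjusted p 0.783, and 0.21 as the mean of its probe sets). The median was 0.25 over first-run arrays and 0.09 over second-run arrays, and with 1 array left out it ran from 0.11 (without Old ND replicate 3) to 0.26. Oxidative phosphorylation genes had 34 of 39 higher with a median of 0.09, but the runs gave 0.18 and -0.06, and the median was 0.03 without Old ND replicate 2 and up to 0.14 without another array. Antigen presentation genes had 21 of 24 higher, a median of 0.13 (0.08 to 0.16 with 1 array left out) and run medians of 0.19 and -0.02. None of these lists had a called member, and the list means of the groups overlapped in each. The members of a list were measured on the same arrays and are not replicates, so counts of higher or lower members are descriptions.

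Immediate early genes and ribosomal protein genes lay mostly below 0. Of 27 immediate early genes, 3 were higher, with a median of -0.12 (-0.16 to -0.06 with 1 array left out), and Nr4a2, a stress-responsive nuclear receptor, differed by -0.47 ± 0.15 (adjusted p 0.764) with no overlap. Of 38 cytosolic ribosomal protein genes 3 were higher, with a median of -0.06 (-0.01 and -0.16 in the runs, -0.1 to -0.03 with 1 array left out). The immediate early list mean ran from 10.33 to 10.78 over Old ND arrays and from 10.34 to 10.57 over Old CR-ND arrays. The ribosomal list mean ran from 10.74 to 11.05 and from 10.76 to 11.03, so both lists overlapped between the groups. In the Hedgehog pathway 3 of 15 genes were lower at an unadjusted p under 0.05, beside 1.95% of all genes, and the median was -0.11. These were the receptor Ptch1 (-0.65), the co-receptor Gas1 (-0.35) and the transcription factor Gli1 (-0.78), the last named after its value was seen. The Hedgehog median was -0.16 over first-run arrays and 0.04 over second-run arrays, and with 1 array left out it ran from -0.12 to -0.04 (without Old ND replicate 2).

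Metabolic lists were close to 0. The median was 0.06 for fatty acid and triglyceride synthesis (12 of 19 higher), 0.06 for fatty acid oxidation (14 of 20), 0.02 for fat storage genes (13 of 21), 0.02 for glycolysis (10 of 17) and -0.01 for insulin, FOXO and mTOR signalling (12 of 25). Scd1, the stearoyl desaturase, differed by 0.68 ± 0.21 (adjusted p 0.733), and Pdk4, which restrains glucose oxidation, by 0.71 ± 0.27 (adjusted p 0.884). In the insulin-like growth factor list the median was -0.09, with Igfbp5, a binding protein, higher by 0.38 (adjusted p 0.75) and all refed arrays above all never-restricted ones. Among the circadian clock genes the median was -0.06, and among cell cycle inhibitors and p53 targets -0.08. DNA replication genes had a median of 0.02, with 16 of 29 higher.

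**Figure D3:**
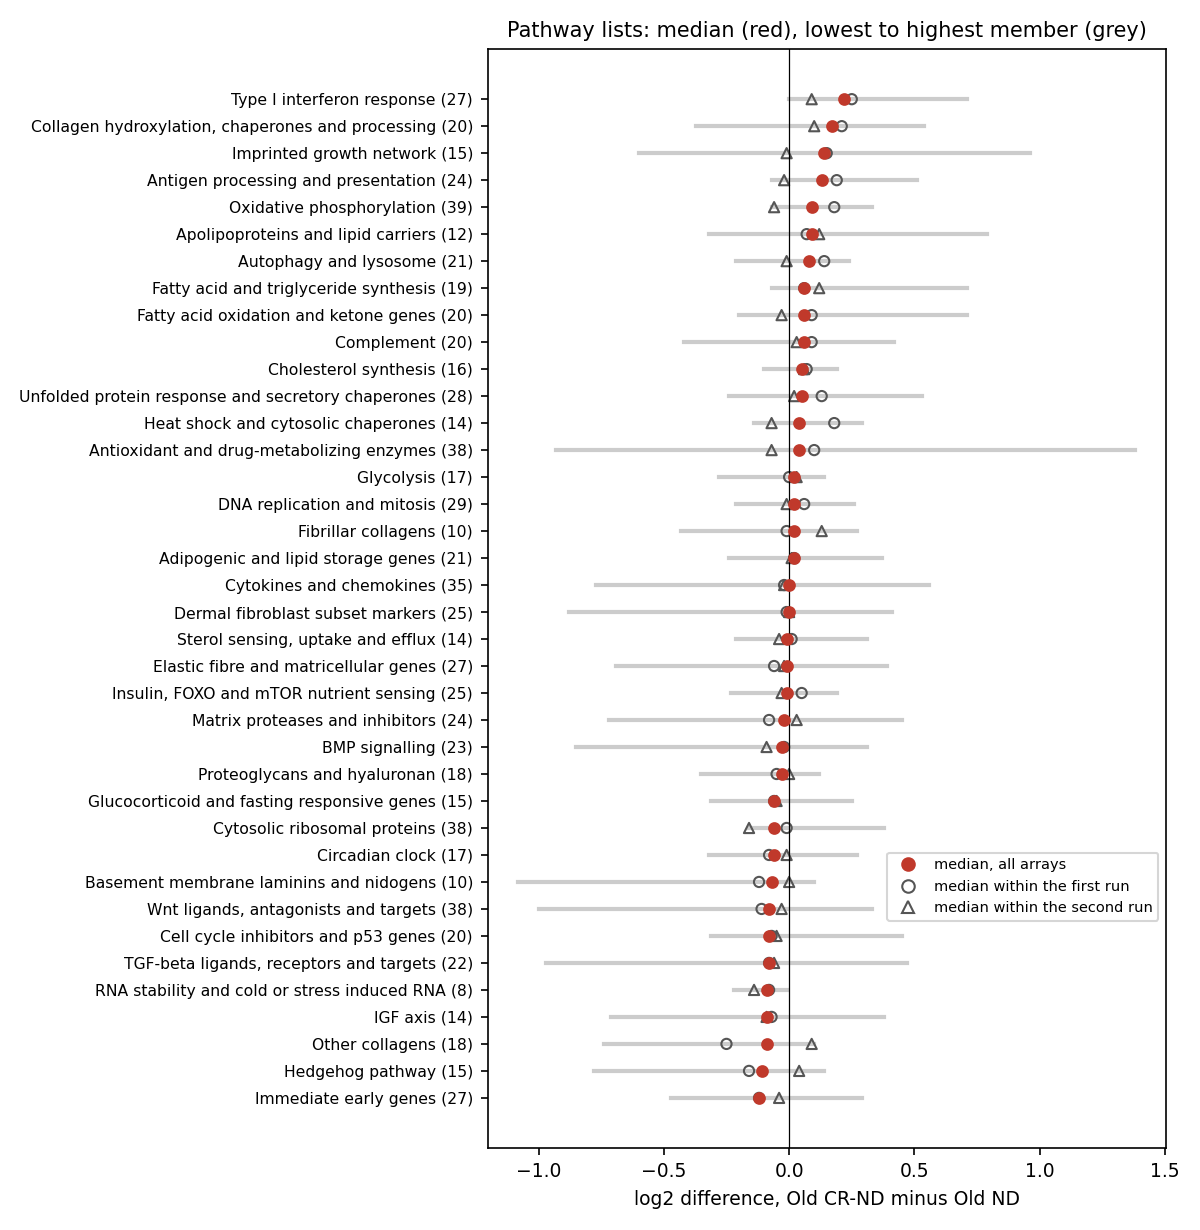
The x axis is the log2 difference of Old CR-ND minus Old ND for 38 gene lists, with the number of measured genes in brackets. Red dots are medians over all arrays, open circles and triangles are medians within each run, and grey bars span the lowest to the highest member. Medians lie between -0.12 and 0.22, and 1 gene in all lists (Rian) passed the threshold.

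A panel of 21 genes, chosen for differences between Old CR and Old ND with earlier results of these data known, was also read in the refed mice. No array samples the refed mice at the end of their restriction. A fall or rise from Old CR below therefore compares different animals and is not a change within the refed mice. The panel is not a list of the largest differences between Old CR and Old ND. Between Old CR and Old ND 81 genes differed by 1 or more, whereas the panel includes Nsdhl (0.91) and Fdft1 (0.65), 2 of its 4 sterol genes. The differences of Old CR and Old CR-ND from Old ND share the Old ND arrays. They are therefore given side by side without a test of their likeness. The panel had 1 member past the threshold in Old CR-ND against Old ND (Rian), beside 0.00585% of all genes. Against Old CR, which does not use the Old ND arrays, 57 genes changed (0.333%), 21 higher (0.123%) and 36 lower (0.211%) in Old CR-ND. With 1 array left out that count was 110 without Old CR replicate 5 and 35, 28, 17 and 29 without replicates 1 to 4 of Old CR. It was 62, 24, 77, 29 and 22 without replicates 1 to 5 of Old CR-ND. With the run as a block 120 genes changed (0.702%), 47 higher (0.275%) and 73 lower (0.427%). Within the panel 7 genes fell and 0 rose in that comparison, and since the panel was chosen on the Old CR arrays this count is a description.

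The panel genes that fell from Old CR had refed means near those of Old ND. Ctla2a, a cysteine protease inhibitor with a near-identical relative that the array may not tell apart, read 9.84, 9.71, 10.74, 10.88 and 9.0 in Old CR. It read 6.28, 6.87, 7.53, 7.85 and 6.63 in Old CR-ND and 7.07, 7.21, 7.11, 7.12 and 7.22 in Old ND. Every refed array lay below every late-restricted one and the refed arrays surrounded the Old ND values. The fall from Old CR was -3.0 ± 0.3 (adjusted p 4.74e-05), and the difference from Old ND was -0.11 (95% interval -0.74 to 0.51). Igfbp3, an insulin-like growth factor binding protein, fell by 2.5 ± 0.45 from Old CR (adjusted p 0.0142). This call was lost without Old CR replicate 2 or 3 or Old CR-ND replicate 4 or 5 (0.0517 to 0.0612), and the difference from Old ND was -0.12 (95% interval -1.05 to 0.82). Lgr5, the R-spondin receptor, fell by 1.97 ± 0.25 from Old CR (adjusted p 0.00071), and differed from Old ND by -0.33 (95% interval -0.85 to 0.19).

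Fdps, which makes farnesyl diphosphate in cholesterol synthesis, read 7.12, 6.75, 6.75, 7.05 and 6.28 in Old CR. It read 6.11, 5.77, 5.69, 5.5 and 5.77 in Old CR-ND and 6.04, 5.42, 5.95, 5.64 and 5.5 in Old ND. It fell by 1.02 ± 0.15 from Old CR (adjusted p 0.00617) and differed from Old ND by 0.06 (95% interval -0.26 to 0.38). Nsdhl, a sterol dehydrogenase, fell by 0.72 ± 0.12 (adjusted p 0.00959). Stard4, a sterol carrier, fell by 0.99 ± 0.17 (adjusted p 0.00962, and 0.0532 without Old CR replicate 3). Fdft1, the squalene synthase, fell by 0.6 ± 0.11 (adjusted p 0.0226), a call lost in 6 of 10 fits with an array left out (0.0518 to 0.0859). Over 16 measured cholesterol synthesis genes, 3 fell from Old CR (0.211% of all genes did), where the median was -0.47, and 0 changed from Old ND, where the median was 0.05. Those 3 (Fdps, Nsdhl and Fdft1) are panel genes chosen on the Old CR arrays, so this count is a description. Insig1, which holds the sterol sensor in the endoplasmic reticulum and was named after its values were seen, fell by 0.77 ± 0.15 from Old CR (adjusted p 0.0303, lost in 8 of 10 such fits). It differed by -0.11 from Old ND (95% interval -0.43 to 0.2).

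The 8 panel genes chosen as lower under late restriction had refed means between those of Old CR and Old ND. Igfbp4, another binding protein, had means of 9.39 in Old ND, 8.68 in Old CR-ND and 6.88 in Old CR. Its refed arrays overlapped those of Old ND (-0.71, 95% interval -1.64 to 0.22), and its difference from Old CR of 1.8 ± 0.45 had an adjusted p of 0.0889. Postn, the matricellular protein periostin, had means of 9.62, 8.94 and 7.24, with one refed array at 7.14 and the others between 8.74 and 10.14. Mgp, a calcification inhibitor of the matrix, had means of 9.12, 8.32 and 7.21, and every refed array lay above every late-restricted one, although the adjusted p was 0.058 (0.0273 with the block). Dkk2, a Wnt antagonist, differed from Old ND by -0.84, Cpe by -0.78, Cxcl2, a neutrophil chemokine, by -0.77, Lrrc15 by -0.97 and Tnmd, a tenocyte membrane protein, by -0.55. None of these passed against Old ND (adjusted p 0.728 to 0.998 for the 8 genes) or against Old CR.

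The remaining panel genes, Rian, Meg3, Cmah, C1qtnf3, Ddah1 and Prdm8, had refed means nearer to Old CR than to Old ND. Cmah was 0.19 below the Old CR mean (95% interval of the difference -0.75 to 0.36), C1qtnf3 0.83 below (adjusted p 0.381), Ddah1 0.7 below (adjusted p 0.139) and Prdm8, a zinc finger regulator, 0.49 below (adjusted p 0.676). Sema3b and Esr1, outside the panel, differed from Old CR by -0.09 (95% interval -0.36 to 0.19) and -0.05 (95% interval -0.34 to 0.24).

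**Figure D4:**
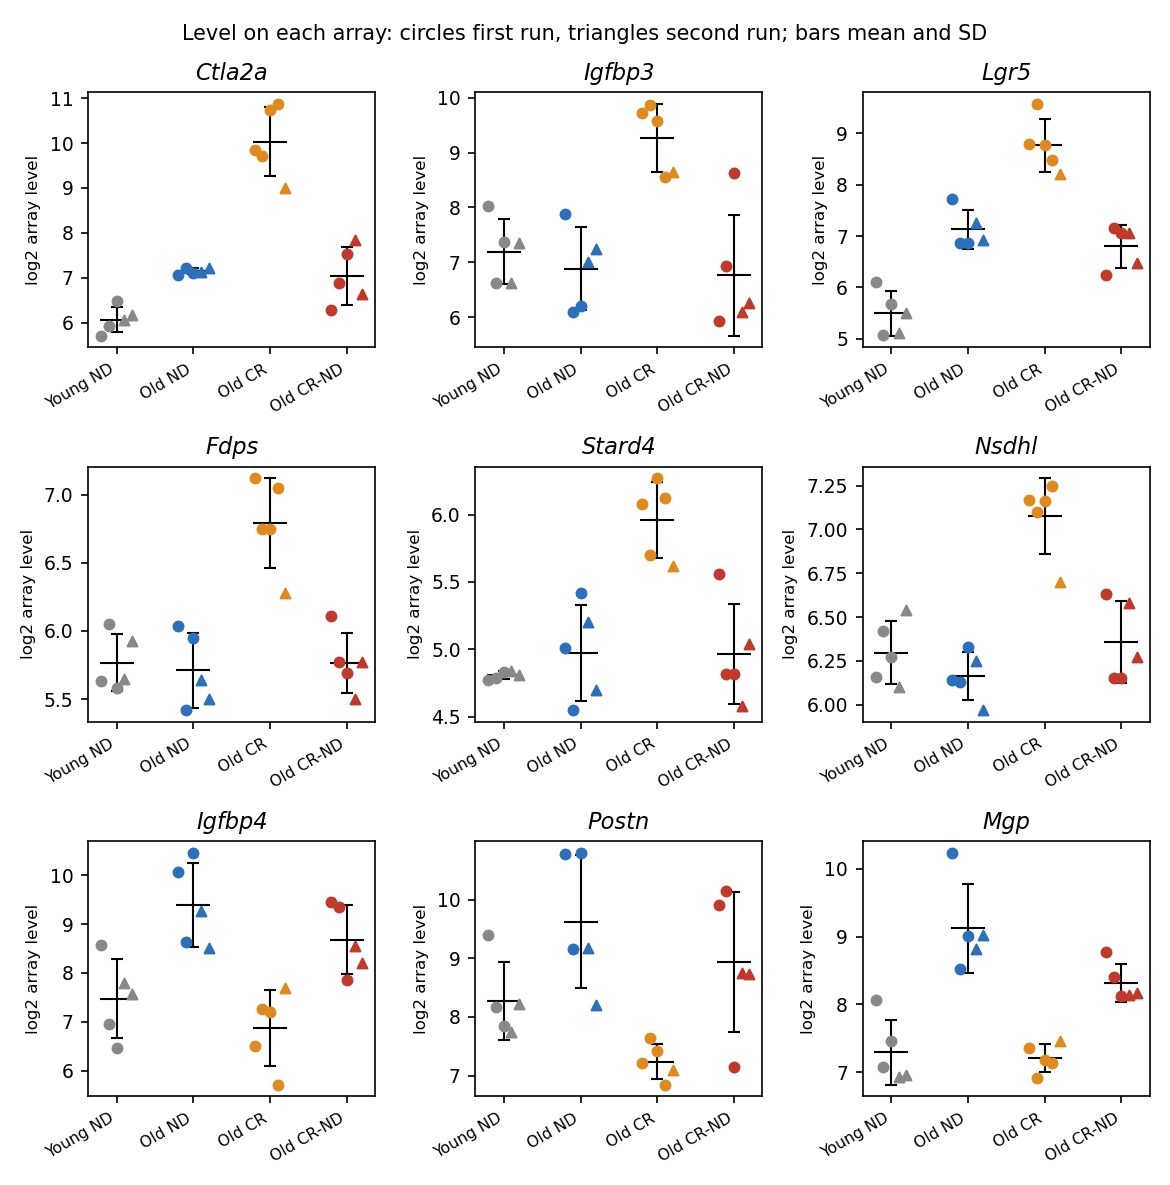
Log2 level on each array for 9 panel genes in the 4 groups, with circles for the first run, triangles for the second and bars for mean and SD (n = 5). For Ctla2a, Lgr5, Fdps, Stard4 and Nsdhl every Old CR-ND array lies below every Old CR array, and Igfbp4, Postn and Mgp have refed means between the other old groups.

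**Figure D5:**
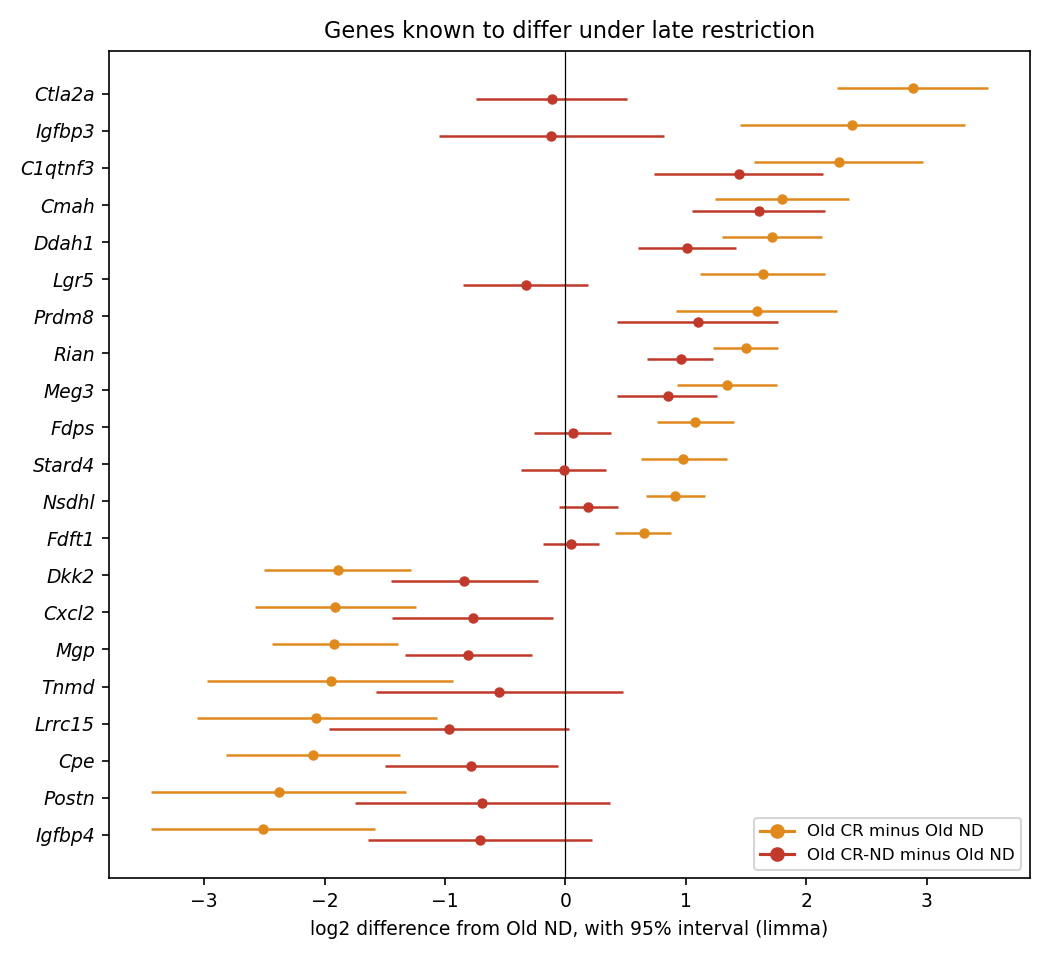
The x axis is the log2 difference from Old ND with limma's 95% interval, for Old CR (orange) and Old CR-ND (red), which share the Old ND arrays. The red intervals span 0 for Ctla2a (-0.74 to 0.51), Igfbp3, Lgr5 and the 4 sterol genes, and lie above 0 for Rian (0.68 to 1.23), Meg3, Cmah, Ddah1, Prdm8 and C1qtnf3.

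Genes higher after refeeding than under late restriction were also named after their values were seen. Ces2g, a carboxylesterase, read 6.12, 6.49, 6.08, 6.34 and 7.24 in Old CR and 7.69, 8.02, 7.68, 8.17 and 8.18 in Old CR-ND. It rose by 1.49 ± 0.23 from Old CR (adjusted p 0.00617) and was 0.6 above Old ND (adjusted p 0.884). Creld2, a chaperone-related protein induced by endoplasmic reticulum stress, rose by 0.92 ± 0.15 (adjusted p 0.00959) and was 0.12 from Old ND. Pxdn, which crosslinks collagen IV, rose by 0.81 ± 0.13 (adjusted p 0.00724) and was 0.08 from Old ND. These 3 calls held with each array left out in turn. In the unfolded protein response list, 2 of 28 genes rose against Old CR (0.123% of all genes did) and 0 changed against Old ND, where Sdf2l1, an endoplasmic reticulum chaperone partner, differed by 0.53 ± 0.14 (adjusted p 0.405).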

How the data were processed

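20 arrays were hybridized, 5 per group, and the comparison of Old CR-ND with Old ND uses 10 of them. The deposited values are log2 levels for each probe set that the authors computed with RMA and the affy package, per the submitters' processing notes (versions not given in the sources used here), with 2 decimals, from 2.71 to 13.46. RMA ordinarily equalizes the distribution of all arrays, so a shift of most genes together cannot be seen. Arrays have no depth in reads, so precision rests on how many there are. Of 45141 probe sets, 28898 name 1 gene; 551 name several and 15692 none and were left out. Symbols were updated through Entrez numbers (28689 matched) against RefSeq GRCm38.p6, and the highest-mean probe set was kept for each of 17097 genes, with no filter on level.

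All 20 arrays were fitted with lmFit and eBayes (limma 3.58.1, R 4.3.3), 1 mean per group, 16 residual and 4.19 prior degrees of freedom. Benjamini-Hochberg adjustment ran over all genes, with a threshold of 0.05. On simulated data for Old CR-ND against Old ND with 17097 genes, the fit called 74.2% of 62 genes changed by 0.5, 96.6% of 59 changed by 1 and 100% of 79 changed by 2, and 10 of 16897 unchanged genes. The simulated noise was independent between genes and held no run effect. The simulation also held many more changed genes than the 1 called in the real arrays, which lets weaker differences pass the adjustment. These shares therefore need not hold for the real arrays. In the real arrays 15 genes differed by 1 or more and 0 of them passed. Alternatives were filters on dim genes, all or averaged probe sets, repeated quantile normalization, centring, trend and robust eBayes, array weights, fewer groups, the run as a block or alone, other thresholds and each array left out. The fits with the run as a block and an array left out were chosen after seeing the data. The genes named were the up to 12 largest rises and falls past the threshold above the median level, or the 6 smallest p where fewer passed, without predicted symbols, and up to 4 members per list past the threshold or 2 where none passed. Members and lists were chosen with earlier results of these data known.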

Additional observations from a re-analysis of the deposited data

Results flagged for a closer look

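Single arrays that stood apart from the other four of their group were found for 17 of 363 groups tested over 121 named genes. A group counted when the gap to the nearest array took more than 0.71 of the group's range, and chance gives about 1 in 20 such groups. In Old CR-ND these were Cx3cl1 on replicate 4 (low, 0.771 of the range), Mirg on replicate 1 (low, 0.726), Col24a1 on replicate 5 (high, 0.774), Lpcat3 on replicate 3 (low, 0.736), Tgfbi on replicate 2 (high, 0.733) and Bbc3 on replicate 5 (low, 0.732). In Old ND they were Mustn1 on replicate 1 (high, 0.853), Cryab on replicate 2 (low, 0.711) and Pecam1 on replicate 3 (low, 0.812). In Old CR they were Esr1 (low, 0.724), Nsdhl (low, 0.727) and Psme1 (high, 0.8) on replicate 5, Fgf10 (high, 0.743) and Gadd45a (low, 0.761) on replicate 1, and Tgfbr2 (high, 0.739), Id1 (low, 0.714) and C1qtnf3 (high, 0.762) on replicate 4.

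The effect of earlier restriction with refeeding differed from that of late restriction, each against Old ND, for 18 named genes. Most were named for large differences that passed in this same comparison, and the rest come from the panel chosen on the Old CR arrays. The count of 18 is therefore a description, beside 57 of all 17097 genes that changed (0.333%). The test is limma's comparison of Old CR-ND with Old CR, in which the Old ND arrays cancel. The refed effect was lower by 3.0 for Ctla2a (-3 on the log2 scale), and the value was -2.5 for Igfbp3, -1.97 for Lgr5, -1.06 for Basp1, -1.02 for Fdps, -0.99 for Stard4, -0.91 for Fmn2, -0.77 for Insig1, -0.72 for Nsdhl and -0.6 for Fdft1. It was higher, by 1.49 for Ces2g, 1.34 for Cacna2d3, 1 for Psapl1, 0.95 for Ccn5, 0.92 for Creld2, 0.84 for Serf1, 0.81 for Pxdn and 0.8 for Clec11a. With each array of the comparison left out in turn, Ctla2a, Lgr5, Fdps, Nsdhl, Ces2g, Creld2 and Pxdn passed in 10 of 10 fits. Stard4 and Ccn5 lost the call only without Old CR replicate 3 (0.0532 and 0.0534). The other calls were lost in several fits. Fmn2 lost it in 9 of 10 (adjusted p up to 0.154), Basp1 in 8 (0.154), Clec11a in 8 (0.146), Insig1 in 8 (0.097), Psapl1 in 7 (0.131), Serf1 in 6 (0.112), Fdft1 in 6 (0.0859), Igfbp3 in 4 (0.0612) and Cacna2d3 in 3 (0.0612).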

How the results depend on the processing

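No named gene past the threshold changed direction under the alternatives run. Differences that had not passed could, such as Igfbp3 against Old ND (0.44 over first-run arrays and -0.95 over second-run arrays). Against 1 gene changed between Old CR-ND and Old ND, the count was 2 with genes under the lower quartile of level left out, 3 with genes under the median left out, 2 after repeated quantile normalization, 11 over every probe set and 3 at an adjusted p under 0.1. It was 8 with the run as a block, 22 in the first run alone, and 0 by limma in the second run alone (591 at an unadjusted p under 0.05) and with only the 2 groups compared (650). With each array left out in turn it ran from 1 to 5, and from 2 to 14 with the block. Rian passed except with only the 2 groups compared (0.0602) and in the second run alone (0.263). The 57 genes changed between Old CR-ND and Old CR became 235 with array weights, 120 with the block and 10 in the first run alone. They became 149 at an adjusted p under 0.1 and 19 under 0.01. They ran from 17 to 110 with each array left out, and from 27 to 173 with the block. The second run holds 1 Old CR array, so no count is given for that run alone. The causes were not tested, apart from the fewer arrays of a single run and the fewer genes of a filter, which those alternatives have by construction. No paired analysis was possible because the labels give no replicate numbers shared between the groups. Per the submitters' design notes, mice of different groups were collected on the same days, but the labels omit each sample's day.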

Other observations

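Several signalling and matrix genes not described above had differences between Old CR-ND and Old ND that did not pass limma's threshold. Mmp23, a membrane-bound matrix protease, read 9.08, 9.17, 9.1, 9.56 and 9.64 in Old ND and 9.82, 9.82, 9.7, 9.79 and 9.68 in Old CR-ND, with no overlap, a difference of 0.45 ± 0.1 and an adjusted p of 0.294. Lamc3, a laminin chain, ran from 7.56 to 9.75 in Old ND and from 7.14 to 8.08 in Old CR-ND, and its difference of -1.08 ± 0.33 (adjusted p 0.694) was -1.52 over first-run arrays and -0.42 over second-run arrays. Wif1, a secreted Wnt inhibitor, differed by -1.0 ± 0.33 (adjusted p 0.783), and its Old ND arrays ran from 3.54 to 6.35. Id1, a BMP target, differed by -0.85 ± 0.27 (adjusted p 0.77). Tgfbr2, a TGF-beta receptor, differed by 0.47 ± 0.16 (adjusted p 0.783), and by 0.3 as the mean of its probe sets.

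Some genes had refed means away from both other old groups. Clu, the secreted chaperone clusterin, had means of 6.7 in Old ND, 6.64 in Old CR and 7.49 in Old CR-ND, with adjusted p of 0.665 against Old ND and 0.144 against Old CR. Psapl1, a saposin-like gene, had means of 5.73, 5.57 and 6.57, with adjusted p of 0.396 and 0.0444, the second lost in 7 of 10 fits with an array left out (up to 0.131).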
